A study of Mus musculus with 11 samples.

Results

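MSX and DLX homeobox genes, together with Barx1, were followed in RNA sequencing of sorted mouse pituitary cells. The set holds 10 of the 56941 genes in the deposited count table and was taken by symbol, without regard to measured values: Msx1, Msx2 and Msx3, Dlx1 to Dlx6, and Barx1. The series compared 5 libraries of APC-mutant cells, replicates 1, 2, 4, 5 and 6, with 6 libraries of wildtype cells, replicates 1 to 6. APC is a scaffold of the complex that degrades beta-catenin, and the series title concerns adamantinomatous craniopharyngioma, a pituitary tumour type with activated WNT signalling. All libraries share the tissue, pituitary, and the isolation by fluorescence-activated cell sorting. The labels give no Apc allele, Cre driver, strain, age or sorting gate, and do not explain the word Lef1 in the APC-mutant titles or the ROSAJC and ROSAE names of the wildtype libraries. Whether each library is a separate animal is also not stated, and p-values then reflect only library-to-library spread, part of which may be technical.

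MSX and DLX proteins are homeodomain transcription factors of the same branch of the homeobox superclass, which bind short AT-rich DNA elements. In the embryo they act in craniofacial mesenchyme and ectoderm, where BMP and WNT signals induce several of them. MSX1 is needed for tooth development past the bud stage, MSX2 acts in skull, tooth and hair development, and DLX3 acts in hair follicle, enamel, dentine and bone. Dlx1 and Dlx2, Dlx3 and Dlx4, and Dlx5 and Dlx6 lie as convergently transcribed neighbours, and Dlx1, Dlx2, Dlx5 and Dlx6 are known from GABAergic forebrain neurons. BARX1 patterns the molar region of the jaw and the stomach. In the pituitary, MSX1 is described in gonadotroph cells as a repressor of the genes for the GnRH receptor and the glycoprotein hormone alpha subunit.

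The homeobox is the 180-base stretch that encodes the DNA-binding homeodomain, and it is where family members resemble each other most. The sequences below show a pair of DLX genes of which 1, Dlx3, differed widely between genotypes and the other, Dlx5, was not called. They were read from the GENCODE M21 transcripts (GRCm38), with the homeobox located from the reading frame. Capitals mark bases that differ between the members of the pair.
Dlx3: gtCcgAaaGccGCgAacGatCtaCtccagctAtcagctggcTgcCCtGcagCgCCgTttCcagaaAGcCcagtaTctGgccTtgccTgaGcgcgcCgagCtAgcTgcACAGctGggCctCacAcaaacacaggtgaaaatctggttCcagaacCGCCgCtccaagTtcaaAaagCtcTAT
Dlx5: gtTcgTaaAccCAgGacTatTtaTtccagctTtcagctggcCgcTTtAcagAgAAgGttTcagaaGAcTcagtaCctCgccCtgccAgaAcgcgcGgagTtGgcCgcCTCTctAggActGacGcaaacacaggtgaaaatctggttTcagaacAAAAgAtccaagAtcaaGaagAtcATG
Dlx3 and Dlx5 differed at 51 of the 180 bases (71.7% identity). Over the whole transcripts, the longest exact run shared by any of the 45 pairs among the 10 genes was 44 bases, between Msx2 and Dlx6, and the next was 26 bases. Reads were 150 bases long, and a read pair with more than 1 mapping position was left uncounted.

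Total counts ran from 18082332 to 27280761 in APC-mutant libraries and from 15740857 to 25414443 in wildtype libraries. Levels are given as CPM, counts divided by a library total scaled with TMM (a trimmed mean of gene-wise log ratios) and multiplied up to the usual common depth. A count of 0 allows up to 3 counts, or 0.114 to 0.198 CPM depending on the library. Apc averaged 42.4 ± 3.004 CPM in APC-mutant libraries and 43.2 ± 3.95 CPM in wildtype libraries (SD, n = 5 and 6, edgeR adjusted p = 0.819); a gene-level count does not show a small deletion or a point mutation. Rank correlations between libraries over the 20622 tested genes were 0.966 to 0.985 within APC-mutant, 0.957 to 0.986 within wildtype and 0.785 to 0.817 between genotypes. APC-mutant replicate 5 and wildtype replicates 2 and 5 had the lowest mean correlations with their own genotype, 0.972, 0.965 and 0.966. The series design calls the wildtype cells stem cells, but 10 hormone and endocrine lineage genes summed to 93.2 to 541.5 CPM in APC-mutant libraries and 57116 to 92705 CPM in wildtype libraries. The sum of 13 endothelial markers ran the other way, with 5048 to 7562 CPM in APC-mutant and 18.1 to 114.9 CPM in wildtype libraries. In bulk samples such as these, fewer cells of a type and less RNA per cell cannot be told apart.

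Differences are log2 fold changes of APC-mutant over wildtype, tested with edgeR's quasi-likelihood test and called where the p-value, adjusted by Benjamini-Hochberg over all tested genes, was under 0.05. Of the 10 genes, 7 passed the filter on low counts. Msx2, Msx3, Dlx2, Dlx3 and Dlx4 were called higher, none was called lower, and Msx1 and Dlx5 were not called. Over all tested genes 59.2% were called, 30.7% as higher and 28.5% as lower. The 5 called genes passed the filter only with the APC-mutant libraries, since none reached the cut-off of 0.512 CPM in more than 4 wildtype libraries, so nothing is read from their number. In 6 of the 10 genes, those 5 and Barx1, every APC-mutant library lay above every wildtype library, as it did for 23.0% of tested genes.

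**Figure D1:**
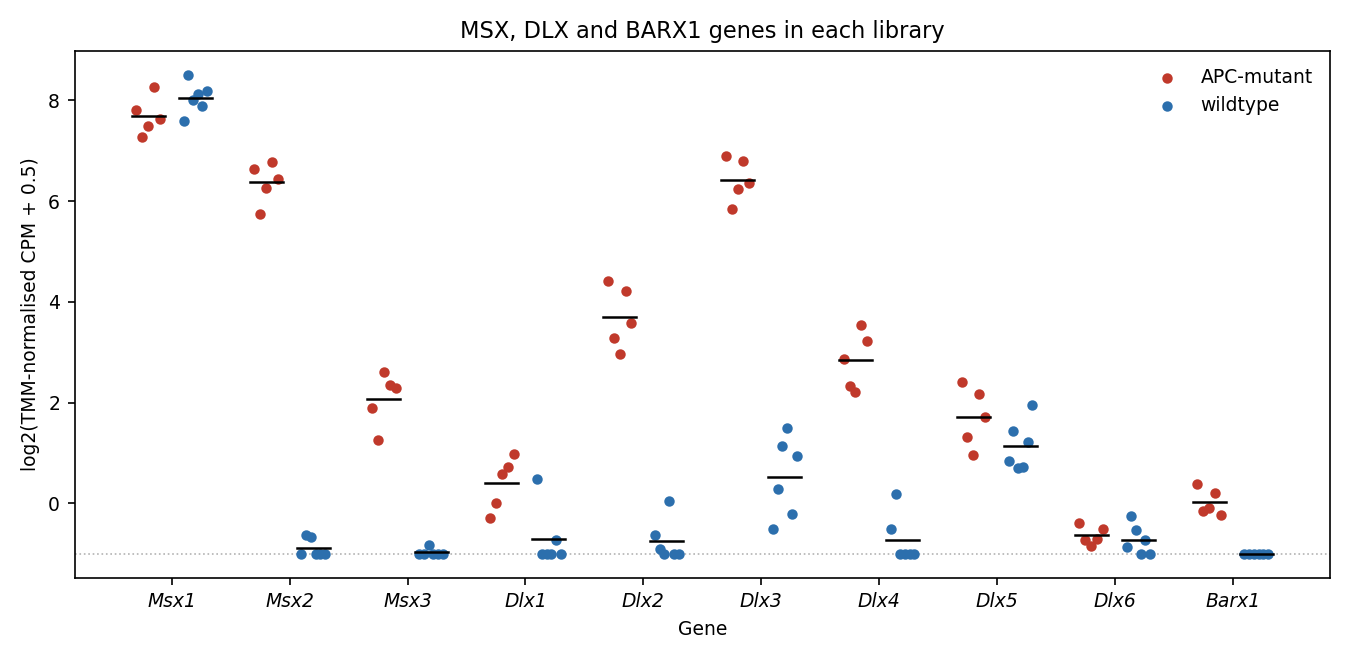
Level of each gene in each library, as log2(TMM-normalised CPM + 0.5), with APC-mutant libraries in red on the left and wildtype libraries in blue on the right. Black lines are group means and the dotted line is a count of 0. The groups separate for Msx2, Msx3, Dlx2, Dlx3, Dlx4 and Barx1, and overlap for Msx1, Dlx1, Dlx5 and Dlx6.

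Msx1 (ENSMUSG00000048450.11, GRCm39 chromosome 5, 37977829 to 37981927, minus strand) was abundant in both genotypes. It had 224, 154, 179, 307 and 196 CPM in APC-mutant replicates 1, 2, 4, 5 and 6, against a lowest value of 192, a median of 267 and a highest value of 363 CPM in wildtype libraries. The ranges overlapped over most of their width, with wildtype replicate 2 and APC-mutant replicate 5 the highest of their groups. The log2 fold change was -0.34 ± 0.18 (SE, 95% interval -0.74 to 0.05, edgeR adjusted p = 0.125), so the interval runs from a fold of 0.599 to one of 1.04. Of the single libraries left out, only APC-mutant replicate 5 changed the call: without it the value was -0.51 (edgeR adjusted p = 0.0177). Without that library and wildtype replicates 2 and 5 the value was -0.46 (edgeR adjusted p = 0.0237).

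Msx2 (ENSMUSG00000021469.10, chromosome 13, 53620920 to 53627110, minus strand) was nearly without counts in wildtype cells. It had 99.3, 53.2, 75.9, 109.5 and 86.5 CPM in APC-mutant replicates 1, 2, 4, 5 and 6. Among wildtype libraries there were 0.151 CPM in replicate 2, 0.132 CPM in replicate 3 and none in the other 4. The 5 APC-mutant libraries held 8858 counts and the 6 wildtype libraries 6. Msx2 rose by 10.54 ± 0.42 log2 units (SE, edgeR adjusted p = 1.85e-10), the 24th largest log2 fold change of the 20622 tested genes. As a ratio of normalised totals this was 1698-fold, with a 95% counting interval of 779.7 to 4627. Without wildtype replicate 2, which held 4 of the 6 wildtype counts, the log2 fold change was 11.54.

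Msx3, a homologue that in the mouse embryo is known from the dorsal neural tube (ENSMUSG00000025469.11, chromosome 7, 139626070 to 139629002, minus strand), was lower in level but as clearly divided. It had 3.20, 1.88, 5.58, 4.58 and 4.36 CPM in APC-mutant replicates 1, 2, 4, 5 and 6. A single count was found among wildtype libraries, in replicate 3 (0.0660 CPM). Msx3 rose by 8.05 ± 0.61 log2 units (SE, edgeR adjusted p = 6.63e-08). The ratio of totals was 464.6, with a counting interval of 82.9 to 18394, so that its size is poorly bounded. Without wildtype replicate 3 no wildtype count remained, and the fitted value of 9.33 then depends on the prior count of the fit.

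Dlx3 and Dlx4 lie side by side on chromosome 11, Dlx3 at 95010945 to 95016122 on the plus strand (ENSMUSG00000001510.9) and Dlx4 at 95031273 to 95037089 on the minus strand (ENSMUSG00000020871.9). Dlx3 had 117.9, 57.2, 74.8, 109.9 and 81.9 CPM in APC-mutant replicates 1, 2, 4, 5 and 6, against a lowest value of 0.2005, a median of 1.07 and a highest value of 2.34 CPM in wildtype libraries. All 6 wildtype libraries held Dlx3 counts, 124 in all. Dlx3 rose by 6.33 ± 0.44 log2 units (SE, edgeR adjusted p = 2.44e-08), and the ratio of totals was 85.2 with a counting interval of 71.4 to 102.5.

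Dlx4, known from the branchial arches, had 6.82, 4.53, 4.15, 11.2 and 8.88 CPM in APC-mutant replicates 1, 2, 4, 5 and 6. Wildtype libraries had 0.2005 CPM in replicate 1, 0.644 CPM in replicate 2 and no count in the other 4. Dlx4 rose by 5.39 ± 0.75 log2 units (SE, edgeR adjusted p = 2.65e-05), with a ratio of totals of 41.6 and a counting interval of 27.0 to 67.6. Wildtype replicate 2 held 17 of the 21 wildtype counts, and without it the log2 fold change was 7.16. Dlx4 shares 2.42% of its exonic bases with Dlx4os on the other strand. Counting did not use strand, and Dlx4os itself averaged 5.44 ± 1.63 CPM in APC-mutant and 0.0292 ± 0.0334 CPM in wildtype libraries (SD, n = 5 and 6), a rise of 7.11 ± 0.49 log2 units (SE, edgeR adjusted p = 2.27e-08).

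Dlx1 and Dlx2 lie on chromosome 2, Dlx1 at 71358457 to 71364325 on the plus strand (ENSMUSG00000041911.4) and Dlx2 at 71373752 to 71377098 on the minus strand (ENSMUSG00000023391.9). Dlx2 had 20.8, 9.22, 7.30, 18.1 and 11.4 CPM in APC-mutant replicates 1, 2, 4, 5 and 6. Wildtype libraries had 0.150, 0.0379 and 0.540 CPM in replicates 1, 2 and 4 and no count in the other 3. Dlx2 rose by 6.81 ± 0.67 log2 units (SE, edgeR adjusted p = 9.10e-07), and the ratio of totals was 124.1 with a counting interval of 72.3 to 233.7. Wildtype replicate 4 held 9 of the 13 wildtype counts, and without it the log2 fold change was 8.19.

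Dlx1 was near the detection limit and did not pass the filter. It had 0.320, 0.509, 0.995, 1.14 and 1.47 CPM in APC-mutant replicates 1, 2, 4, 5 and 6, against 0.902 CPM in wildtype replicate 1, 0.104 CPM in wildtype replicate 5 and no count in the other 4. Wildtype replicate 1 therefore lay within the APC-mutant range and above APC-mutant replicates 1 and 2. The mean difference in log2(CPM + 0.5) was 1.11 in an exact permutation test over the 11 libraries (two-sided p = 0.0173), while edgeR without the filter gave 2.35 with an adjusted p of 0.0567. The difference was 0.95 (exact permutation p = 0.0857) without wildtype replicates 2 and 5 and APC-mutant replicate 5. Of the exonic bases of Dlx1, 43.3% overlap Dlx1as on the other strand, and those fragments cannot be assigned to either gene. Dlx1as averaged 9.11 ± 1.38 CPM in APC-mutant and 7.10 ± 2.35 CPM in wildtype libraries (SD, n = 5 and 6, log2 fold change 0.36, edgeR adjusted p = 0.197).

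Dlx5 and Dlx6 lie on chromosome 6, Dlx5 at 6877805 to 6882085 on the minus strand (ENSMUSG00000029755.11) and Dlx6 at 6863334 to 6868568 on the plus strand (ENSMUSG00000029754.14). Dlx5, a regulator of jaw identity and bone formation, had 4.79, 1.99, 1.44, 4.01 and 2.79 CPM in APC-mutant replicates 1, 2, 4, 5 and 6, against a lowest value of 1.12, a median of 1.56 and a highest value of 3.40 CPM in wildtype libraries. The groups overlapped, with APC-mutant replicates 1 and 5 above all wildtype libraries. The log2 fold change was 0.71 ± 0.38 (SE, 95% interval -0.11 to 1.52, edgeR adjusted p = 0.124), which leaves folds of 0.930 to 2.87 within the interval. Without wildtype replicate 6, the highest wildtype library, it was 0.97 (adjusted p = 0.0363), and against the ROSAJC wildtype libraries alone it was 1.002 (adjusted p = 0.0490).

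Dlx6 had 15 counts over the 5 APC-mutant libraries and 15 over the 6 wildtype libraries. Its levels were 0.0553 to 0.266 CPM in APC-mutant and 0 to 0.341 CPM in wildtype libraries, and the exact permutation test gave a difference of 0.09 in log2(CPM + 0.5) (two-sided p = 0.519). A difference was not detectable at this depth.

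Barx1 (ENSMUSG00000021381.5, chromosome 13, 48816474 to 48819983, plus strand) had 0.799, 0.407, 0.442, 0.649 and 0.355 CPM in APC-mutant replicates 1, 2, 4, 5 and 6 and no count in any wildtype library. The 55 APC-mutant counts against 0 make it at least 21.1-fold higher, with a floor of 3 counts over the wildtype group. The mean difference in log2(CPM + 0.5) was 1.03 (exact permutation test, two-sided p = 0.00433, the smallest this test can give with 5 and 6 libraries). It did not pass the filter because 2 APC-mutant libraries reached the cut-off. In edgeR without the filter it was called higher (adjusted p = 0.000121).

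**Figure D2:**
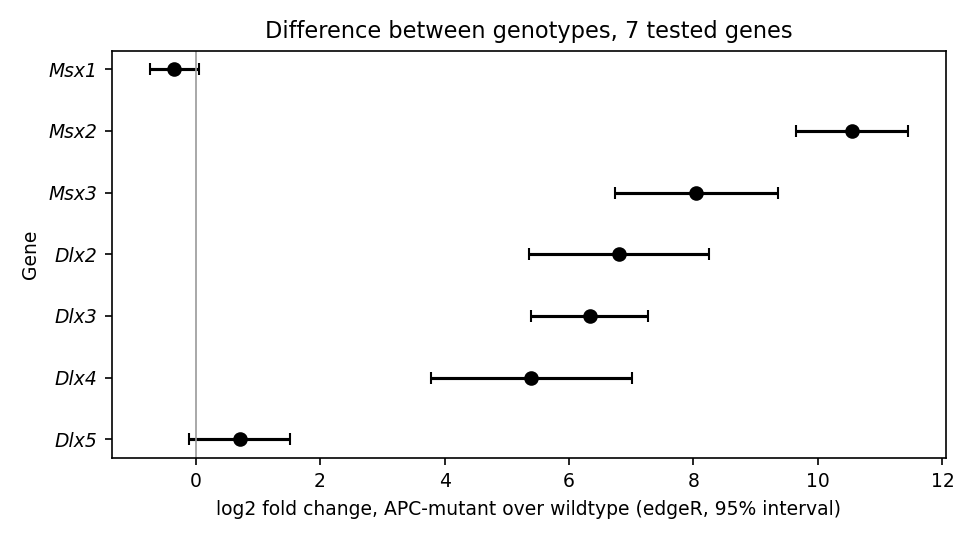
Log2 fold change of APC-mutant over wildtype for the 7 tested genes, with 95% intervals from edgeR's quasi-likelihood fit. The intervals of Msx1 and Dlx5 include 0, and those of the other 5 genes lie between 3.77 and 11.44.

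With wildtype replicates 2 and 5 and APC-mutant replicate 5 left out together, the 5 called genes were still called, with log2 fold changes of 11.13 for Msx2, 7.48 for Msx3, 6.09 for Dlx2, 5.87 for Dlx3 and 6.60 for Dlx4. Dlx5 was then at 0.62 and not called (adjusted p = 0.288). Barx1 differed by 0.98 on the log2(CPM + 0.5) scale (exact permutation p = 0.0286), and Dlx6 by 0.23 (exact permutation p = 0.171). The wildtype libraries carry names of 2 kinds, 4 ROSAJC and 2 ROSAE, whose meaning the labels do not give. All wildtype counts of Msx2, Msx3, Dlx2 and Dlx4 came from ROSAJC libraries, 6, 1, 13 and 21 in number, and the ROSAE libraries had 0 of each. Dlx3 was at 0.2005 to 2.34 CPM in ROSAJC and 0.363 to 1.43 CPM in ROSAE libraries. Against ROSAJC libraries alone the 5 genes were also called, with log2 fold changes of 9.97 for Msx2, 7.64 for Msx3, 6.19 for Dlx2, 6.17 for Dlx3 and 4.79 for Dlx4.

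Levels of different genes were compared per kilobase of the deposited gene length. In APC-mutant cells Msx1 came first with 68.5 ± 19.0 CPM per kb, followed by Dlx3 with 33.9 ± 9.66 and Msx2 with 25.9 ± 6.65 CPM per kb (SD, n = 5). The ranges of Dlx3 and Msx2 overlapped, while Msx1 lay above both in range. Dlx2, Dlx4, Msx3 and Dlx5 followed at 4.68, 2.18, 1.66 and 1.33 CPM per kb, with neighbours in that order overlapping, and Barx1, Dlx1 and Dlx6 came last at 0.379, 0.165 and 0.0624 CPM per kb. In wildtype cells Msx1 stood at 86.9 ± 18.6 CPM per kb, and the next, Dlx5, at 0.808 ± 0.387 CPM per kb (SD, n = 6). Dlx3 followed at 0.433 CPM per kb with a range that overlapped that of Dlx5, and the other 7 were under 0.05 CPM per kb. Set among all tested genes, Dlx3 lay above 89.9% of them in APC-mutant and above 13.3% in wildtype cells, and Msx2 above 86.6% in APC-mutant and 0.873% in wildtype cells. Msx1 lay above 94.9% in APC-mutant and 96.7% in wildtype cells.

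Within the MSX family the make-up differed while the sums overlapped. MSX genes summed to 96.0 ± 25.4 CPM per kb in APC-mutant and 86.9 ± 18.6 CPM per kb in wildtype libraries (SD, n = 5 and 6), with overlapping ranges. Of that sum, Msx1 made up 71.3 ± 2.62%, Msx2 27.0 ± 2.27% and Msx3 1.76 ± 0.683% in APC-mutant libraries (SD, n = 5). In wildtype libraries Msx1 made up 99.98 ± 0.0343% (SD, n = 6). The ratio of Msx1 to Msx2 per kb stayed between 2.38 and 3.07 over the 5 APC-mutant libraries, although Msx2 itself ran from 53.2 to 109.5 CPM. Other ratios taken in the same way varied more. Dlx3 over Dlx4 ran from 11.6 to 22.6, and Dlx2 over Dlx1, with few Dlx1 counts, from 13.9 to 122.9.

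DLX genes summed to 42.3 ± 12.8 CPM per kb in APC-mutant and 1.41 ± 0.419 CPM per kb in wildtype libraries (SD, n = 5 and 6). Dlx3 made up 80.5 ± 3.15% of the sum in APC-mutant and 29.3 ± 20.7% in wildtype libraries, and Dlx5 3.04 ± 0.678% in APC-mutant and 57.6 ± 18.6% in wildtype libraries (SD, n = 5 and 6). Within the neighbouring genes 1 partner held most of the signal in APC-mutant cells. Dlx3 made up 94.0 ± 1.71% of Dlx3 plus Dlx4, Dlx2 96.0 ± 2.51% of Dlx1 plus Dlx2, and Dlx5 95.5 ± 1.46% of Dlx5 plus Dlx6 (SD, n = 5). This was not particular to APC-mutant cells. In wildtype libraries Dlx3 made up 85.7 ± 22.2% and Dlx5 94.0 ± 6.27% of their pairs (SD, n = 6), at low counts. Some wildtype libraries had no count of Dlx1 or Dlx2, so no wildtype share is given for that pair.

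**Figure D3:**
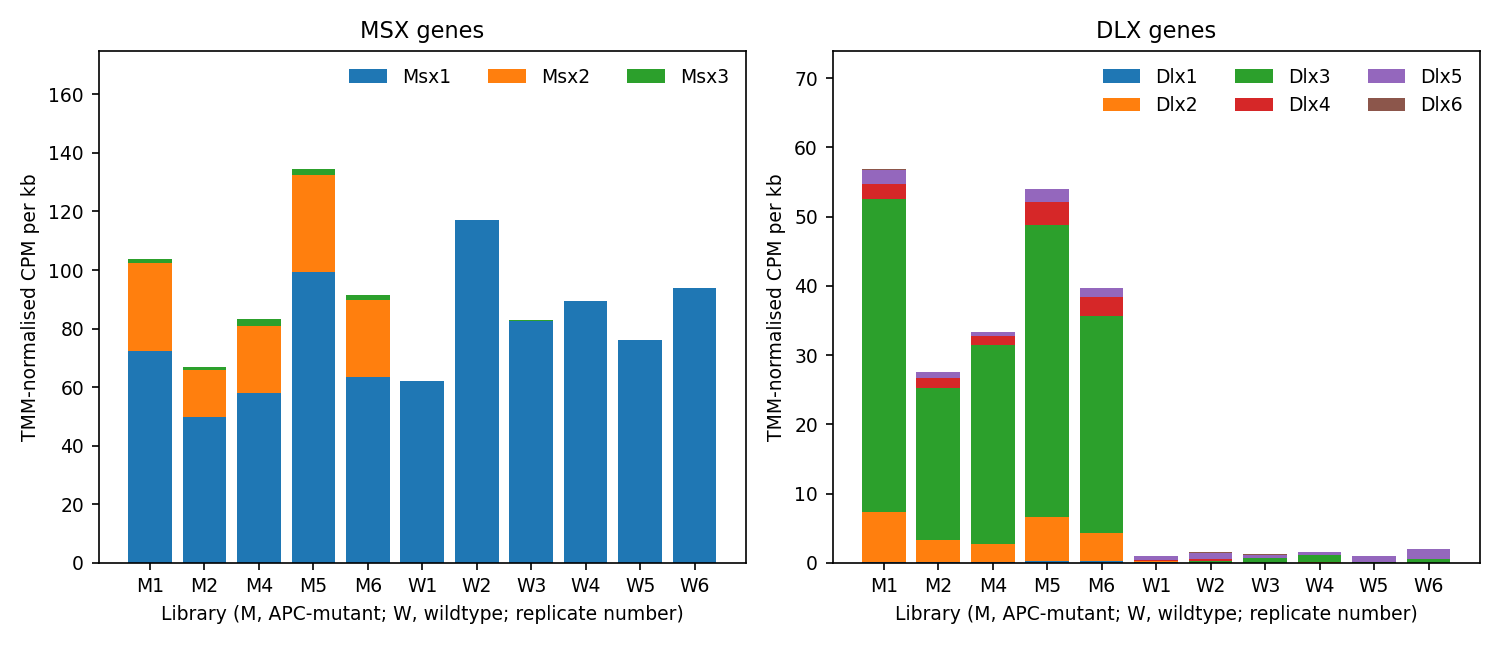
TMM-normalised CPM per kb of the MSX genes (left) and DLX genes (right), stacked by gene for each library, with APC-mutant libraries (M) left of wildtype libraries (W). The MSX stacks reach similar heights in both genotypes, with Msx2 visible only in APC-mutant libraries, and Dlx3 fills most of each APC-mutant DLX stack.

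Within the APC-mutant group the highest and lowest levels of the genes lay in part in the same libraries. The highest level lay in replicate 1 or 5 for 6 of the 7 tested genes, Msx3 being highest in replicate 4, and the lowest level lay in replicate 2 or 4 for all 7. The share of all tested genes with this order was not computed, so nothing particular to these genes is read from it. Marker sums for other cell types also differed between these libraries. Of the 9 marker lists, 3 had their highest sums in replicates 1 and 5 and their lowest in replicates 2 and 4. These were stratified and oral epithelium markers, such as Trp63 and Krt5, with 449, 288, 304, 482 and 379 CPM in APC-mutant replicates 1, 2, 4, 5 and 6, GABAergic neuron markers with 186, 121, 174, 259 and 183 CPM, and erythroid markers with 3982, 2913, 2076, 3952 and 3177 CPM. The other 6 lists had other orders. Macrophage markers were lowest in replicates 5 and 1, with 237 and 241 CPM, and reached 1509 CPM in replicate 2. Mesenchymal and pericyte markers were at 802 CPM in replicate 5 and 3774 CPM in replicate 2, and endothelial markers were lowest in replicate 1, with 5048 CPM, and highest in replicate 5. The part of cell composition in this variation was not tested, and 5 libraries are too few for a correlation.

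**Figure D4:**
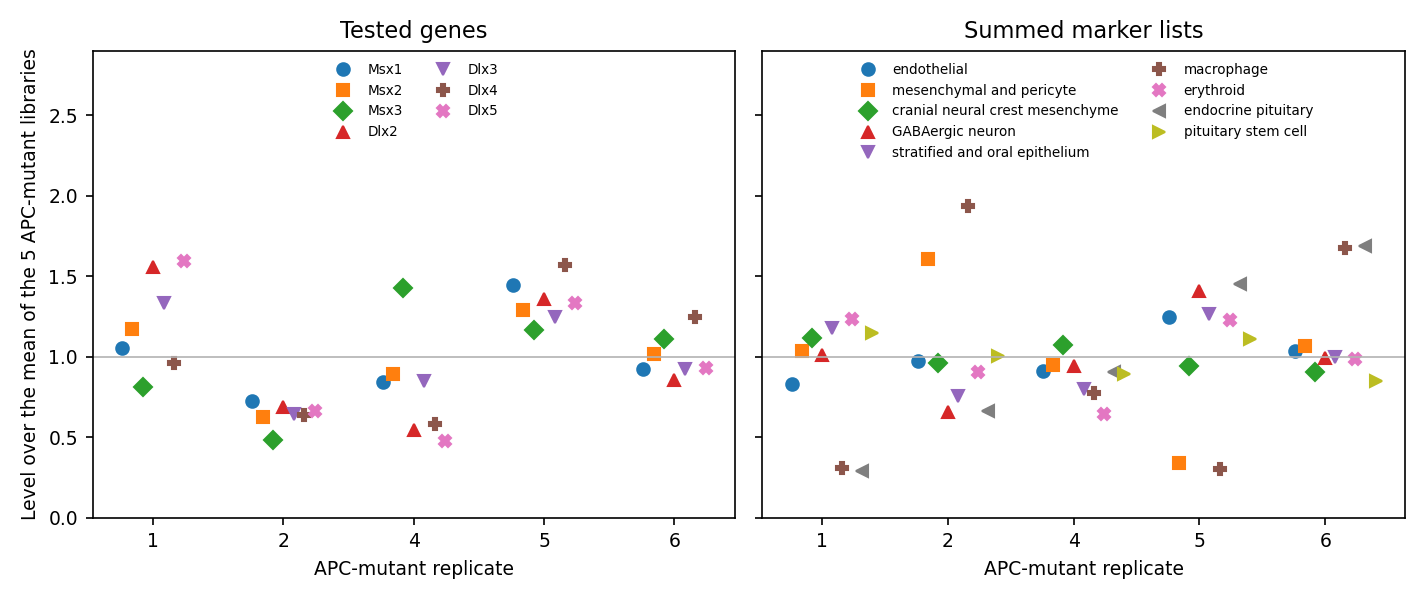
Level of each tested gene (left) and of summed marker lists (right) in each APC-mutant library, divided by the mean of the 5 APC-mutant libraries. Most genes lie below 1 in replicates 2 and 4 and above 1 in replicate 5, and the epithelial, GABAergic neuron and erythroid marker sums do the same.

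Between genotypes, 8 of 8 tested stratified epithelium markers rose (9 listed), with sums of 288 to 482 CPM in APC-mutant and 33.2 to 68.3 CPM in wildtype libraries. Krt6a and Dsg3 were without counts in wildtype libraries. Krt15 was at 0 to 0.649 CPM in APC-mutant and 0 to 1.45 CPM in wildtype libraries. Mesenchymal and pericyte markers rose for 12 of 12 (802 to 3774 CPM in APC-mutant, 128 to 335 CPM in wildtype libraries). Markers of cranial neural crest mesenchyme, where MSX and DLX genes are known to act, rose for 7 of 7 tested of 10 listed, with sums of 121 to 150 CPM in APC-mutant and 13.7 to 23.2 CPM in wildtype libraries. In that list Foxd3 had no count in any APC-mutant library, and Hand2 none in any wildtype library. Of the neural crest sum, Prrx2 alone gave 52.3 to 68.6 CPM in APC-mutant and 2.04 to 6.30 CPM in wildtype libraries. Prrx2 is also on the pituitary stem cell list. Of 5 tested GABAergic neuron markers, 2 rose and 2 fell (121 to 259 CPM in APC-mutant, 194 to 250 CPM in wildtype libraries), and Slc32a1, the vesicular GABA transporter, was without counts in all APC-mutant libraries. Macrophage markers rose for 8 of 8 and erythroid markers for 6 of 6, the second with sums of 2076 to 3982 CPM in APC-mutant and 1.25 to 35.3 CPM in wildtype libraries. Among 10 pituitary stem cell markers 3 rose and 4 fell (422 to 570 CPM in APC-mutant, 588 to 902 CPM in wildtype libraries). These marker calls stand beside 30.7% called higher and 28.5% called lower over all tested genes. Markers such as Krt6a, Dsg3 and Alx4, the last at most at 0.345 CPM in wildtype libraries, passed the filter only with the APC-mutant libraries. For such genes only a rise could be recorded, so nothing is read from the numbers of markers that rose. The part of these cell types in the MSX and DLX differences was not tested.

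Genes of the BMP pathway, which induces Msx1 and Msx2 in embryonic tissues, mostly rose. The list holds ligands, receptors and SMADs, and also ID targets, antagonists and inhibitors, so its counts are not counts of inputs alone. Of 24 genes tested, 16 were called higher and 2 lower, beside 30.7% and 28.5% of all tested genes. Their median log2 fold change was 1.27, beside 0.02 for all tested genes. The ligand gene Bmp4 averaged 175 ± 32.2 CPM in APC-mutant and 4.86 ± 2.23 CPM in wildtype libraries (SD, n = 5 and 6), a rise of 5.17 ± 0.28 log2 units (SE, edgeR adjusted p = 2.89e-09). Bmp2 rose by 3.20, the inhibitory Smad7 by 3.10 and the target Id3 by 2.86 log2 units. Genes of antagonists and inhibitors went in different directions: Bambi rose by 3.49, Smad6 by 1.91 and Fst, which encodes follistatin, by 1.24 log2 units, Chrd, which encodes chordin, fell by 2.03 log2 units, and Nog was at 0.15 (edgeR adjusted p = 0.772). The receptor gene Acvr2b fell by 0.80 log2 units. The part of this pathway in the MSX and DLX differences was not tested.

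Regulators of the tooth germ, in which MSX and DLX factors work beside FGF and WNT signals, rose for 20 of 25 tested genes (27 listed) and fell for 2, with a median log2 fold change of 3.85. The shares over all tested genes were 30.7% higher and 28.5% lower. Genes such as Fgf3 and Fgf4, with 1 and 3 wildtype counts, passed the filter only with the APC-mutant libraries. Fgf3 and Fgf4, signals of tooth epithelium, averaged 45.3 ± 11.4 and 57.1 ± 19.6 CPM in APC-mutant libraries and 0.00864 ± 0.0212 and 0.0292 ± 0.0324 CPM in wildtype libraries (SD, n = 5 and 6). Fgf20 rose by 5.03 and Wnt6 by 6.99 log2 units. Isl1, a LIM homeobox gene also expressed in pituitary lineages, fell by 1.24 log2 units.

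Genes reported elsewhere as targets of MSX or DLX factors moved in both directions. Of 23 listed, 18 were tested, 14 rose and 4 fell, with a median log2 fold change of 4.20. Among all tested genes the shares were 30.7% higher and 28.5% lower. Genes such as Ibsp and Sp7, with 10 and 2 wildtype counts, passed the filter only with the APC-mutant libraries. Ibsp, which encodes bone sialoprotein, averaged 75.3 ± 38.1 CPM in APC-mutant and 0.0898 ± 0.129 CPM in wildtype libraries (SD, n = 5 and 6), and the bone regulators Sp7 and Runx2 rose by 9.31 and 4.03 log2 units. Gad1, a GABA synthesis gene reported downstream of DLX factors, rose by 7.27 log2 units, while its partner Gad2 fell by 1.41. Gnrhr and Cga, reported as repressed by MSX1, fell by 8.79 and 3.09 log2 units, and Fshb, a gonadotroph hormone gene, fell by 3.68. All 10 endocrine markers, a list that itself includes Cga and Fshb, were lower. The part of endocrine cells in these changes was not tested.

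Other genes of the NK-like and extended HOX homeobox group were detected in part. Of 43 listed, 16 were tested, 9 rose and 4 fell, with a median log2 fold change of 3.15. Over all tested genes 30.7% were called higher and 28.5% lower. Tlx1 and Tlx2, with 1 wildtype count each, passed the filter only with the APC-mutant libraries, so nothing is read from these numbers. Untested genes went both ways. Emx2 had 83 counts in APC-mutant and 9 in wildtype libraries, and Dbx2 had 4 and 35. Tlx2 rose by 9.26, Tlx1 by 7.99 and Hhex, which is also expressed in endothelium, by 6.70 log2 units. Mnx1 fell by 7.36 and Barx2, the paralogue of Barx1, fell by 5.10 log2 units, with 12 counts in APC-mutant and 522 in wildtype libraries.

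Of the tested genes that overlap a locus, Dlx4os rose by 7.11 log2 units and Dlx1as, at 0.36, was not called, as given above. Beyond these, the nearest tested gene that overlaps none of the 10 was taken on each side of the 7 loci. Of these 14 neighbours, 3 were called higher, 5 lower and 6 were not called, with log2 fold changes of -5.46 to 2.07. As 30.7% of all tested genes were called higher and 28.5% lower, nothing is read from these counts. Caly, beside Msx3, fell by 5.46 ± 0.44 log2 units, with 2.79 ± 2.33 CPM in APC-mutant and 123.5 ± 19.4 CPM in wildtype libraries (SD, n = 5 and 6). Next to Msx2, Sptlc1 rose by 0.62 and Sfxn1 fell by 0.50 log2 units. Beside Dlx3 and Dlx4, Itga3 fell by 0.73 log2 units, and Kat7 was at 0.02 (edgeR adjusted p = 0.877).

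**Figure D5:**
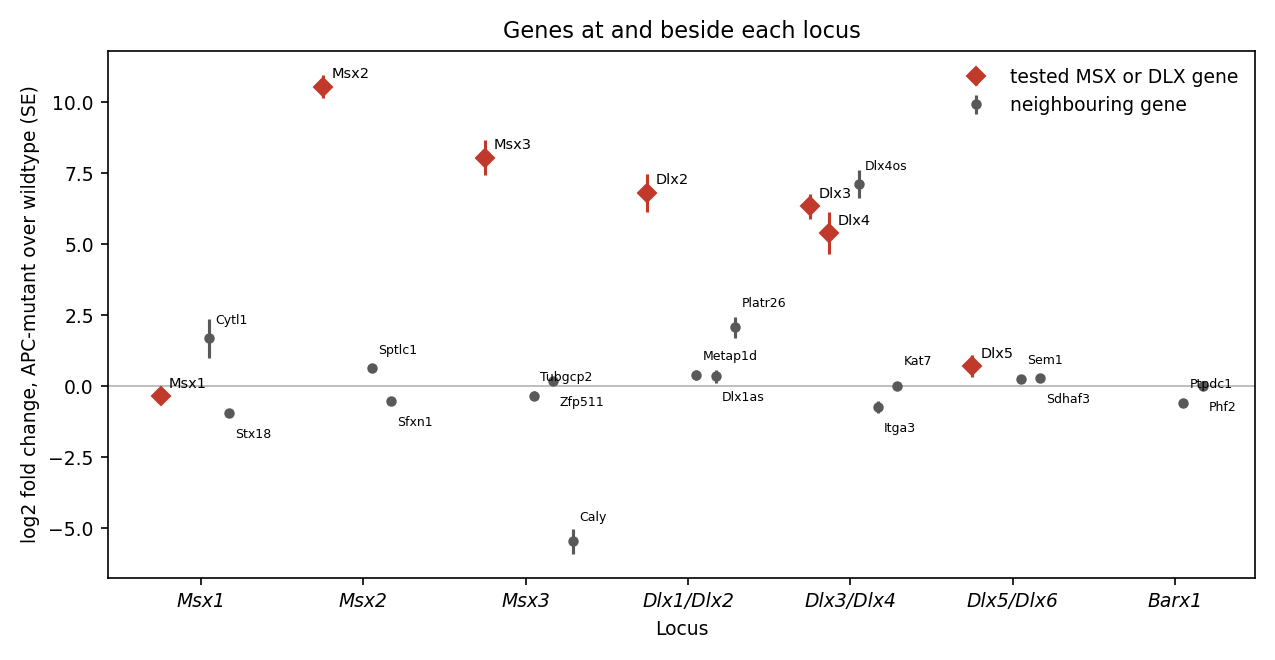
Log2 fold change of APC-mutant over wildtype, with SE, for the tested MSX and DLX genes (red diamonds) and genes beside them (grey points), grouped by locus. Apart from Dlx4os and Caly, the neighbours lie between -0.94 and 2.07.

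The genes whose levels followed each called gene most closely over the 11 libraries were sought by the root mean square difference of centred log2(CPM + 0.5). The search covered tested genes, without the 10 genes of the set, genes with Gm or Rik names and genes without a symbol. Whether another MSX or DLX gene was nearer is therefore not shown. A near gene can still differ in log2 fold change, as Apcdd1 (7.56) does from Msx2 (10.54). Since each of the 5 separated the genotypes, so did the genes nearest to them. For Msx2 these were Apcdd1 (0.286), a WNT inhibitor gene, Cdx1 (0.303) and the hair keratin gene Krt33a (0.304). For Msx3 they were Apoc4 (0.123), Trdc (0.220) and Nipal4 (0.225), and for Dlx2 they were Tns4 (0.255), Gimap1os (0.325) and Trpm1 (0.354). For Dlx3 they were Fli1 (0.376), Hs3st3b1 (0.390) and Lmo2 (0.413), of which Fli1 and Lmo2 are known from endothelial and blood cells. For Dlx4 they were Bvht (0.315), Tmem54 (0.316) and its own antisense neighbour Dlx4os (0.320).

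Promoter sequences were read for the 6 of the 10 genes with an entry in the RefSeq promoter table (GRCm38.p6, whose coordinates do not match the GRCm39 positions above). The 250 bases before the start are printed for Msx1, not called, and for Msx2, Msx3 and Dlx2, higher in APC-mutant cells. Capitals mark matches to any of the 5 motifs searched.
Msx1, chr5:37824586-37824835, minus strand: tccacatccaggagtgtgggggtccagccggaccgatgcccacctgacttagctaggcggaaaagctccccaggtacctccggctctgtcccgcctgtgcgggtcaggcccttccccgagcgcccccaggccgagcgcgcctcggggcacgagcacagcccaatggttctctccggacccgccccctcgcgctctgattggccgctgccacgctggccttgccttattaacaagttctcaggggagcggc
Msx2, chr13:53472781-53473030, minus strand: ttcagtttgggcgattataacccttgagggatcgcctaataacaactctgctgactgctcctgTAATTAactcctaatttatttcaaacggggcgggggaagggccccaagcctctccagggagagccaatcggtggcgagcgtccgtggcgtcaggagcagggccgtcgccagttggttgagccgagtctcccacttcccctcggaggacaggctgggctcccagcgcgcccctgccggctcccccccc
Msx3, chr7:140049089-140049338, minus strand: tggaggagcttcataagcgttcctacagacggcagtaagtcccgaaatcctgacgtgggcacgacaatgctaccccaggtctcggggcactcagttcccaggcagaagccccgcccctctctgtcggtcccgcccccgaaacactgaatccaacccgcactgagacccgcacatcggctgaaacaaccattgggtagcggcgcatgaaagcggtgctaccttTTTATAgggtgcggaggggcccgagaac
Dlx2, chr2:71546755-71547004, minus strand: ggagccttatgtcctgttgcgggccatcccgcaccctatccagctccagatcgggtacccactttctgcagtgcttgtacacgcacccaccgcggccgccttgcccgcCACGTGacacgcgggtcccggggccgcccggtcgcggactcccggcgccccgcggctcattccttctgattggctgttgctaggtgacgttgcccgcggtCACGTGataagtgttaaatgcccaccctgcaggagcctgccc
All motifs searched are given, each on both strands, and TAATTA was added after the sequences had been seen. The TCF/LEF core TCAAAG was in none of the 6 windows and in 13.8% of 32851 mouse promoters, and the homeodomain core TAATTG was in none and in 7.17%. TAATTA was found 1 time, in Msx2 at 187 bases before the start, and in 4.84% of promoters. The TATA box TATAAA was found 1 time, in Msx3 at 28 bases before the start, and on either strand in 12.4% of promoters. In Msx3 the printed strand reads the reverse complement TTTATA, so TATAAA itself lies on the opposite strand. The E-box CACGTG was found 2 times, both in Dlx2, at 142 and 42 bases before the start, and in 6.02% of promoters. GC content was 60.0% to 85.6% in the 6 windows, against a median of 52.4% over all promoters. A match is a run of letters only and does not show a binding site.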

How the data were processed

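RNA from sorted pituitary cells was amplified with a SMARTer kit, enriched for poly(A) and sequenced as paired 150-base reads on an Illumina NovaSeq, per the labels' protocols. The deposited values are raw counts per gene. Per the file headers, they were made with featureCounts 2.0.1 on the GENCODE M33 annotation (GRCm39) for read pairs, with pairs that overlap several genes counted for each and no strand setting. Trim Galore 0.6.5, STAR 2.7.9a and DESeq2 are named, without settings, in the submitters' processing notes. The header lists 30 alignment files; the 11 with a column are used here. The deposited Length column, exonic bases per gene, is of another unit and served only to scale levels per kb. Symbols were matched for 51948 of 56941 identifiers (91.2%, with 98.6% of counts).

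Counts were tested with edgeR 4.0.16 in R 4.3.3 (filterByExpr, TMM, glmQLFit and glmQLFTest, genotype as the term). SE was obtained as |log2 fold change| / sqrt(F). Genes that failed the filter were tested with an exact permutation test on log2(CPM + 0.5). Intervals of count ratios are exact binomial at 95%, and like the floor of 3 counts they cover counting error only. A fitted fold change against few counts depends on the prior count. The fit was tested on simulated data. Alternatives used limma 3.58.1 (voom) and DESeq2 1.42.0, other scalings and filters, and left out libraries. Replicate numbers were not used to pair libraries.

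The genes, lists, markers and tests were chosen with earlier results of these data known, so no list is independent evidence. All 10 genes are named; from each list, up to 4 called genes with the smallest p, and others beside a result for their role. Barx2, genes that fell in a list, BMP antagonists and inhibitors, Gad1, Gnrhr, Cga and the 5 neighbours named were picked after their values were seen. The 3 libraries left out together were likewise chosen with earlier results known. For likeness the 3 nearest of the genes searched are named per called gene. Some results on single genes and sequences are not reported here.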

Additional observations from a re-analysis of the deposited data

Results flagged for a closer look

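Each genotype was screened for a library that stood far from the rest for each gene, in 19 groups of libraries, and 4 met the criterion. The criterion marks about 1 in 20 groups of continuous values by chance, a rate that does not hold for groups of mostly 0 counts such as these, where a single count is enough. All 4 were a wildtype library above the other 5, at very low levels. Msx3 had 0.0660 CPM in wildtype replicate 3, which is 1 count, and none elsewhere in wildtype. Dlx1 had 0.902 CPM (18 counts) in wildtype replicate 1, where the next wildtype library had 0.104 CPM. Dlx2 had 0.540 CPM (9 counts) in wildtype replicate 4, with 0.150 CPM in the next. Dlx4 had 0.644 CPM (17 counts) in wildtype replicate 2, with 0.2005 CPM in the next. The 4 values came from 4 different libraries, and a cause was not tested.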

How the results depend on the processing

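Msx2, Msx3, Dlx2, Dlx3 and Dlx4 were called higher in all 21 alternative settings each. The number of genes called higher ran from 5662 to 7443 and called lower from 4847 to 6424. Msx1 was not called in 19 of 21 settings, and was called at -0.51 without APC-mutant replicate 5 and at -0.46 without wildtype replicates 2 and 5 and APC-mutant replicate 5; leaving out single libraries gave -0.51 to -0.24. Dlx5 was called at 0.97 without wildtype replicate 6 and at 1.002 against ROSAJC wildtype libraries alone, and leaving out single libraries gave 0.48 to 0.97; against ROSAE libraries alone it was 0.21. The permutation difference of Dlx1 missed the threshold, at 0.95 (exact permutation p = 0.0857), without the same 3 libraries, an alternative added after the data were seen. In these cases the cause was not tested beyond fewer libraries being used. Against the 2 ROSAE libraries alone, which have no counts of these genes, fitted values were 13.75 for Msx2, 9.32 for Msx3, 11.09 for Dlx2 and 10.18 for Dlx4, and the Dlx3 value was 6.61. Replicate numbers did not pair the libraries: correlations of same-numbered deviations were -0.151 to 0.049. The replicate block left out wildtype replicate 3, whose number no APC-mutant library has, and with it the only wildtype count of Msx3. With this block 5662 genes were called higher and 4915 lower. Log2 fold changes were -0.37 for Msx1, 10.84 for Msx2, 9.25 for Msx3, 6.70 for Dlx2, 6.56 for Dlx3, 5.63 for Dlx4 and 0.57 for Dlx5, and no call among them changed. The Msx3 value then depends on the prior count of the fit. The permutation tests against ROSAE libraries alone were not run, since 5 against 2 libraries give too few splits. Levels per kb with a length of another kind were not run, because the deposited length is tied to the counts. Msx3 and Barx1 were under the floor of 3 counts in all wildtype libraries. Msx2, Dlx1, Dlx2, Dlx4 and Dlx6 had more than 3 counts in 1 or 2 wildtype libraries each, at most 18, and depth limits the folds of these 7 genes.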
